A study of Mus musculus with 2 samples.

Results

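Divergent coding gene pairs are pairs of protein-coding genes on opposite strands whose 5′ ends lie head to head, so that the DNA between them serves as the promoter of both. Pairs were taken from the annotation alone, with no measured value: both genes autosomal and protein-coding, the 5′ end of the minus-strand gene to the left of that of the plus-strand gene, and 1 to 1000 bp between them. There were 734 such pairs with 1448 genes, of 20807 autosomal protein-coding genes in all, and 40 pairs shared a gene with another pair. The distance between the 5′ ends had a median of 128 bp, with quartiles of 66.3 and 240 bp and a maximum of 987 bp. Each pair was read over a window that ran from 300 bp inside the minus-strand gene to 300 bp inside the plus-strand gene.

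The chromatin data came from DNase-seq, which sequences the ends left where the nuclease DNase I has cut, and it cuts where the chromatin is open. The tissue was liver of B6NCrl mouse embryos at 11.5 days of development, pooled over males and females, with no treatment and no altered allele named. Both libraries, technical replicates 7 and 1, came from the same biosample, so the data describe 1 biological sample with no second group. No p-value was computed for that reason, and the 95% intervals, which are exact Clopper-Pearson intervals, cover counting error over promoters and not the spread between animals.

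Promoters of most vertebrate housekeeping genes lie in CpG islands, stretches rich in the dinucleotide CpG, and transcription from them starts in both directions. Divergent pairs place a gene on each side of such an island, and they are known to be frequent among genes of DNA repair, mitochondria and RNA metabolism and among the replication-dependent histone genes. NF-Y binds the CCAAT box upstream of starts, ETS family factors and NRF1 bind promoters of housekeeping genes, and YY1 binds just inside the transcribed region. The embryonic liver at this age is a site of blood formation, with many erythroid cells beside hepatoblasts.

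The pairs' promoters are shown here by the DNA between the 5′ ends on the plus strand of GRCm38 (mm10), 5′ to 3′, with capitals marking matches to 13 motifs. The first 5 belong to pairs that were among the strongest, were listed by name, or held the most footprints. Mrps12/Sars2 holds 3 NF-Y boxes (CCAATCA or CCAATGA, or the reverse complement), Setd3/Ccnk holds 1, Rer1/Morn1 an ETS site (CCGGAAG), Apaf1/Ikbip an NRF1 site (GCGCATGC) and an SP and KLF site (GGGGCGGGG), and Larp7/Zgrf1 a CREB and ATF site (TGACGTCA). The last pair of sequences comes from histone pairs chosen after their values were seen, with and without a peak.
Mrps12/Sars2, chr7:28741821-28741991: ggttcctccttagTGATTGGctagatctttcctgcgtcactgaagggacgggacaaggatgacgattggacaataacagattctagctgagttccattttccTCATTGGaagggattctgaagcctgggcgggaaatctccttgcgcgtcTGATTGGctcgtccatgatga
Setd3/Ccnk, chr12:108179315-108179578: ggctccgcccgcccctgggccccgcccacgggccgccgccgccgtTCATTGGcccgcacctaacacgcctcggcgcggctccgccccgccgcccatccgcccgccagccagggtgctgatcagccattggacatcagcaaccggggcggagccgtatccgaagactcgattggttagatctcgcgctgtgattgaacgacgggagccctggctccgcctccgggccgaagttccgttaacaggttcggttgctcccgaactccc
Rer1/Morn1, chr4:155086383-155086576: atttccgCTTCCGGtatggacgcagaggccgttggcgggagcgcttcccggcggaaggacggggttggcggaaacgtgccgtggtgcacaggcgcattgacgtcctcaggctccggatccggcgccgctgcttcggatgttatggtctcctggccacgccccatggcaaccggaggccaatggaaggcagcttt
Apaf1/Ikbip, chr10:91082771-91082939: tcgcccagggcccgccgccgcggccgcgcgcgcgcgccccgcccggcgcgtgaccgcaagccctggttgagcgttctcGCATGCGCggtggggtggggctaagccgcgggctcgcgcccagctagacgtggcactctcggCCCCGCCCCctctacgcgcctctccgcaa
Larp7/Zgrf1, chr3:127553350-127553488: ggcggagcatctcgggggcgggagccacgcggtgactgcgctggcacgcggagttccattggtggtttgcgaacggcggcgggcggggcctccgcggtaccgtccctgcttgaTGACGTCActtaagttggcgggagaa
Hist1h2ag/Hist1h2bj, chr13:22042945-22043213: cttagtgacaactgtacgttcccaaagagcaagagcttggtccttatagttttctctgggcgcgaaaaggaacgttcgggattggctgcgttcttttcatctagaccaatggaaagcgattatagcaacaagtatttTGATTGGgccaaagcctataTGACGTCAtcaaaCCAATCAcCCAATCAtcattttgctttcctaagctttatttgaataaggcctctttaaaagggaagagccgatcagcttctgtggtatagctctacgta
Hist1h2bq/Hist1h2ao, chr13:21810198-21810464: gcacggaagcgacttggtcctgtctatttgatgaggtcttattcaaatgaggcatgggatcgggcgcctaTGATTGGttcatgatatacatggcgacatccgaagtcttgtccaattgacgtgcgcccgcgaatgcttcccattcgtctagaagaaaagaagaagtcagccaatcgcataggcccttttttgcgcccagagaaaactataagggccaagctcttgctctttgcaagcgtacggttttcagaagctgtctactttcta

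The peak list of technical replicate 7 held 86036 peaks with a median width of 258 bp, and that of technical replicate 1 held 42422 peaks with a median width of 303.5 bp. The number of reads behind them is not known from the files used here. Of 20 erythroid marker genes, 9 had a peak in both libraries within 300 bp of the 5′ end, as had 5 of 15 hepatoblast, 0 of 4 macrophage, 2 of 5 endothelial, 1 of 4 mesenchymal, 2 of 4 muscle and 2 of 4 neuronal marker genes. These shares were near or below the 47.0% of single starts with a peak in both libraries. Single starts were read over a further 128 bp upstream, and each marker group held few genes. In technical replicate 7 a peak lay at 12 of the erythroid, 12 of the hepatoblast and 4 of the neuronal genes, and in technical replicate 1 at 10, 6 and 2. The share of each cell type in the tissue, and its part in the values below, was not tested.

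A window was called open where at least 1 peak overlapped it in both libraries. Of the 734 pairs, 692 were open (94.3%, interval 92.3 to 95.8%), against 7766 of 16525 single starts (47.0%, interval 46.2 to 47.8%). Single starts were coding 5′ ends with no 5′ end of any other gene on the opposite strand, and no other coding 5′ end, within 1000 bp, read over 128 bp upstream with 300 bp on both sides. In technical replicate 7 a peak lay in 701 pairs (95.5%) and in 53.4% of single starts, and in technical replicate 1 in 693 pairs (94.4%) and in 47.8% of single starts. Only 9 pairs had a peak in technical replicate 7 alone, 1 pair in technical replicate 1 alone, and 32 in neither list. Of the 32, 5 had a peak in a longer, less strict list of either library, and 27 had none in any of the 4 lists.

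Most of that gap went with CpG content. The CpG observed/expected ratio of the 1000 bp around the window had a median of 0.777 in pairs, against 0.445 at single starts, and 93.6% of pairs but 46.3% of single starts had a ratio of 0.5 or more. Within steps of 0.1, single starts weighted to the pairs' CpG content were open in 85.9%, so that pairs stood 8.34 percentage points above them. The difference was widest at intermediate CpG content: with a ratio of 0.5 to 0.6, 54 of 57 pairs were open (94.7%, interval 85.4 to 98.9%), against 72.4% of single starts (69.9 to 74.8%). With 0.6 to 0.7, 116 of 117 pairs were open (99.1%), against 83.9% of single starts. With 0.8 to 0.9 all 199 pairs were open, against 95.1% of single starts. With 0.9 to 1.0 the order turned and the intervals overlapped, with 91 of 96 pairs open (94.8%, 88.3 to 98.3%), against 95.9% of single starts (94.3 to 97.1%). All 5 pairs without a peak in both libraries there were pairs of histone genes.

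**Figure D1:**
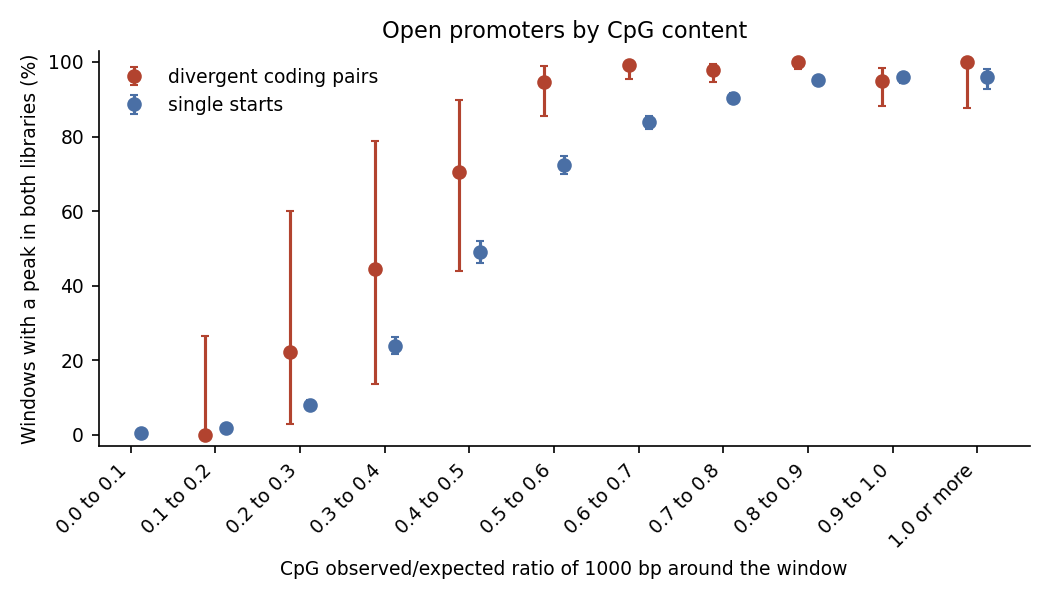
Share of windows with a peak in both libraries (y axis, percent) by CpG observed/expected ratio (x axis), for divergent coding pairs (red) and single starts (blue), with exact 95% intervals. Pairs reach 94.7% at a ratio of 0.5 to 0.6, where single starts are at 72.4%, and both are above 94% from 0.8 on.

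Divergent coding pairs also stood above pairs of a coding gene with a non-coding gene, found by the same distances. Of 832 such mixed pairs, 657 were open (79.0%, interval 76.0 to 81.7%), which came to 89.6% at the CpG content of the coding pairs, or 4.68 points below them.

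The shares open just inside and just outside the limits of distance lay within each other's counting intervals. Of 125 pairs 1 to 50 bp apart, 124 were open, and of 50 coding gene pairs just outside the rule, whose annotated 5′ ends overlapped by 0 to 100 bp, 49 were. At the far limit, 14 of 15 pairs 801 to 1000 bp apart were open, as were 16 of 19 pairs at 1001 to 1200 bp. Overlapping head-to-head ends were common: 446 coding pairs overlapped by up to 1000 bp, and they are not members. Of 20 divergent pairs listed by name, 7 were members, and textbook pairs such as Hspd1/Hspe1 and Surf1/Surf2 fell outside because their annotated 5′ ends overlap.

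Open pairs carried strong peaks. The highest cut density of the strongest peak in the window, ranked among all peaks of the same library, had a mean percentile of 94.4 ± 7.8 (SD, n = 692 pairs) in technical replicate 7, against 86.1 at open single starts of like CpG content. In technical replicate 1 the mean percentile was 88.0 ± 11.5 in open pairs, against 76.4 at single starts. The strongest peak was among the top 10% of the library in 87.1% of open pairs (84.4 to 89.5%), against 61.4% of single starts of like CpG content, in technical replicate 7, and in 55.1% (51.3 to 58.8%), against 33.1%, in technical replicate 1. The widths were close: the median width of the strongest peak was 272.5 bp in pairs and 271 bp at single starts in technical replicate 7, and 385 and 386 bp in technical replicate 1. These medians at single starts were not weighted to the pairs' CpG content. The mean widths were 288 bp in pairs and 295 bp at single starts so weighted in technical replicate 7, and 392 and 399 bp in technical replicate 1. Windows of pairs held 1.42% of all autosomal peaks in technical replicate 7 and 2.57% in technical replicate 1.

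Taken over all distances, the number of peaks was also higher. In technical replicate 7, 393 of 692 open pairs held 2 or more peaks (56.8%, 53.0 to 60.5%), against 42.6% of open single starts, or 46.6% at the pairs' CpG content. In technical replicate 1, 320 open pairs did (46.2%, 42.5 to 50.04%), against 34.1% of open single starts, or 37.5% at the pairs' CpG content. Open mixed pairs of a coding and a non-coding gene were close to the coding pairs. At the same CpG content, 53.9% of them held 2 or more peaks in technical replicate 7 and 43.1% in technical replicate 1. Both values lay inside the coding pairs' intervals. Giving single starts the pairs' own interval lengths left 9.12 points of the 10.2 between the classes in technical replicate 7. Open pairs 1 to 100 bp apart showed no excess over the single starts' 46.6% and 37.5%. Among them 42.4% held 2 or more peaks in technical replicate 7 (36.7 to 48.2%). In technical replicate 1, 36.3% did (30.8 to 42.0%). Beyond 500 bp the shares were 84.7% and 72.9%. Single starts were not matched to each distance, and their 128 bp upstream is longer than the interval of the closest pairs. The mean number of peaks was 1.74 in open pairs and 1.53 at single starts of like CpG content in technical replicate 7, and 1.57 and 1.44 in technical replicate 1.

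How the peaks sat on the pair changed with the distance between the genes. Of the open pairs 1 to 100 bp apart, 286 of 295 had a single peak over both 5′ ends in technical replicate 7 (96.9%, 94.3 to 98.6%). The share was 84.2% at over 100 and up to 200 bp, 52.2% up to 300 bp, 9.68% up to 500 bp and 0 of 59 pairs beyond 500 bp, where the upper bound is 6.06%. In technical replicate 1 the shares were 91.9, 83.2, 52.2, 16.1 and 0%. In technical replicate 7 separate peaks lay over each 5′ end in 20.7% of pairs over 200 and up to 300 bp apart, 48.4% up to 500 bp and 54.2% beyond 500 bp, and a peak lay over only 1 of the ends in 41.9% and 40.7% of the pairs up to and beyond 500 bp. In technical replicate 1 separate peaks were found in 15.2%, 37.1% and 39.0% over the 3 ranges of distance, and a peak over only 1 end in 29.3%, 40.3% and 52.5%. The median peak was narrower than the longer distances, so that the distance itself limits whether a peak can reach both ends.

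**Figure D2:**
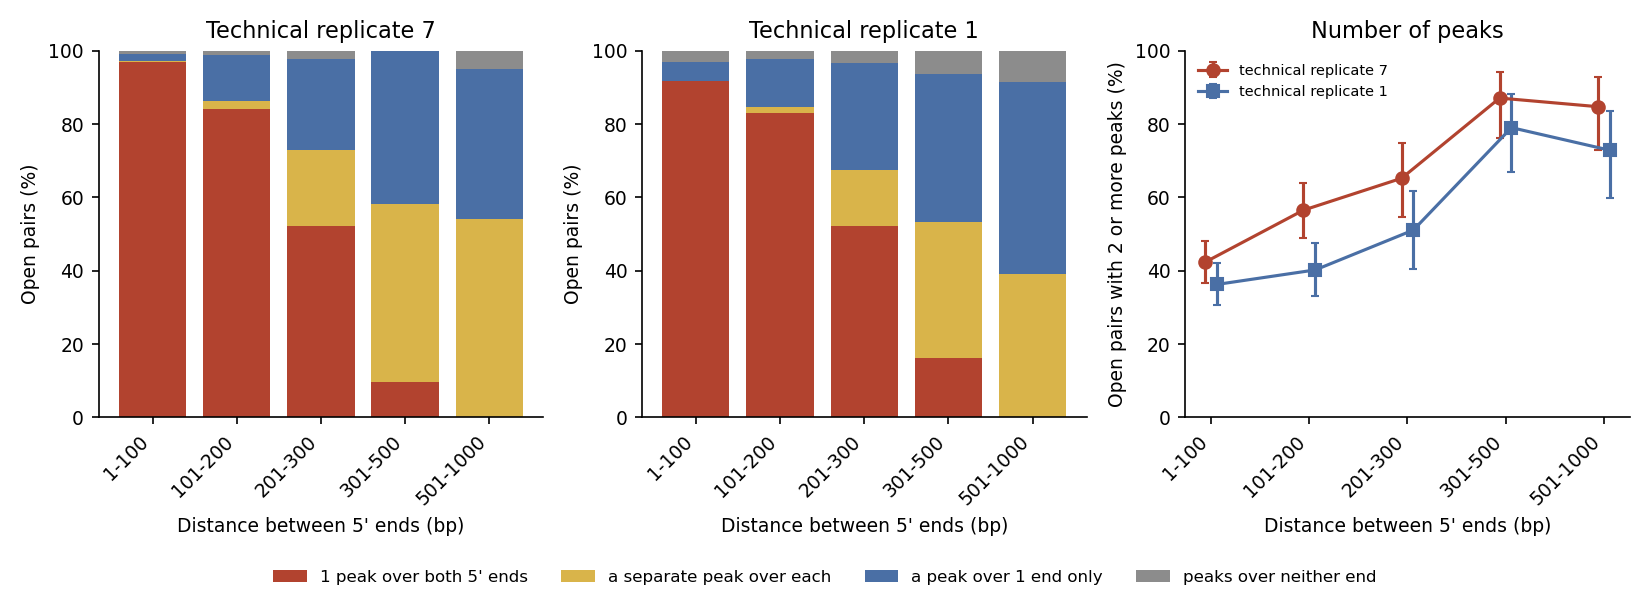
Open pairs by distance between the 5′ ends (x axes, bp): the left and middle panels give the share (percent) with 1 peak over both ends, separate peaks, a peak over 1 end or over neither, for each library, and the right panel the share with 2 or more peaks, with exact 95% intervals. The shared peak goes from 96.9% at 1 to 100 bp to 0 beyond 500 bp in technical replicate 7, and the share with 2 or more peaks goes from 42.4% to 84.7%.

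The summit of the strongest peak lay between the 5′ ends in 484 of 692 open pairs (69.9%, 66.4 to 73.3%) in technical replicate 7 and in 420 (60.7%, 56.9 to 64.4%) in technical replicate 1. The interval made up 23.9% of the bases of the open windows. Where the summit lay outside the interval it was inside the minus-strand gene in 100 pairs and inside the plus-strand gene in 108 pairs in technical replicate 7, and in 134 and 138 pairs in technical replicate 1, so neither strand was preferred. The median offset of the summit from the pair's middle, positive toward the plus-strand gene, came to -0.5 bp in technical replicate 7 and -0.25 bp in technical replicate 1. At open single starts the summit lay upstream of the start in 69.3% in technical replicate 7 and 56.3% in technical replicate 1. That share counts summits at any distance upstream, which is a larger part of the window than the interval of the pairs. It is therefore not a like measure to the share between the 5′ ends. The libraries placed the summit of a pair a median of 27 bp apart, and within 50 bp of each other in 517 of 692 open pairs (74.7%).

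Footprints are short stretches inside open DNA that were cut less than their surroundings. They came from different processing in each library, so their numbers are compared between promoter classes only and not between libraries. Open pairs held 4.22 ± 2.25 footprints per window in technical replicate 7 (SD, n = 692), against 2.97 at open single starts of like CpG content. In technical replicate 1 they held 8.69 ± 3.36, against 6.78. Per 1000 bp of window the values were 5.41 in pairs and 4.08 at single starts in technical replicate 7, and 11.2 and 9.30 in technical replicate 1. Around each 5′ end the difference was larger upstream, over 300 bp that hold the interval and in most pairs also the start of the partner gene: 2.64 per pair 5′ end and 1.74 per single start within 300 bp upstream in technical replicate 7, and 4.55 and 3.05 in technical replicate 1. Within 300 bp inside the gene there were 1.06 per pair 5′ end and 0.871 per single start in technical replicate 7, and 2.75 and 2.94 in technical replicate 1. These last values were not weighted to the same CpG content.

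**Figure D3:**
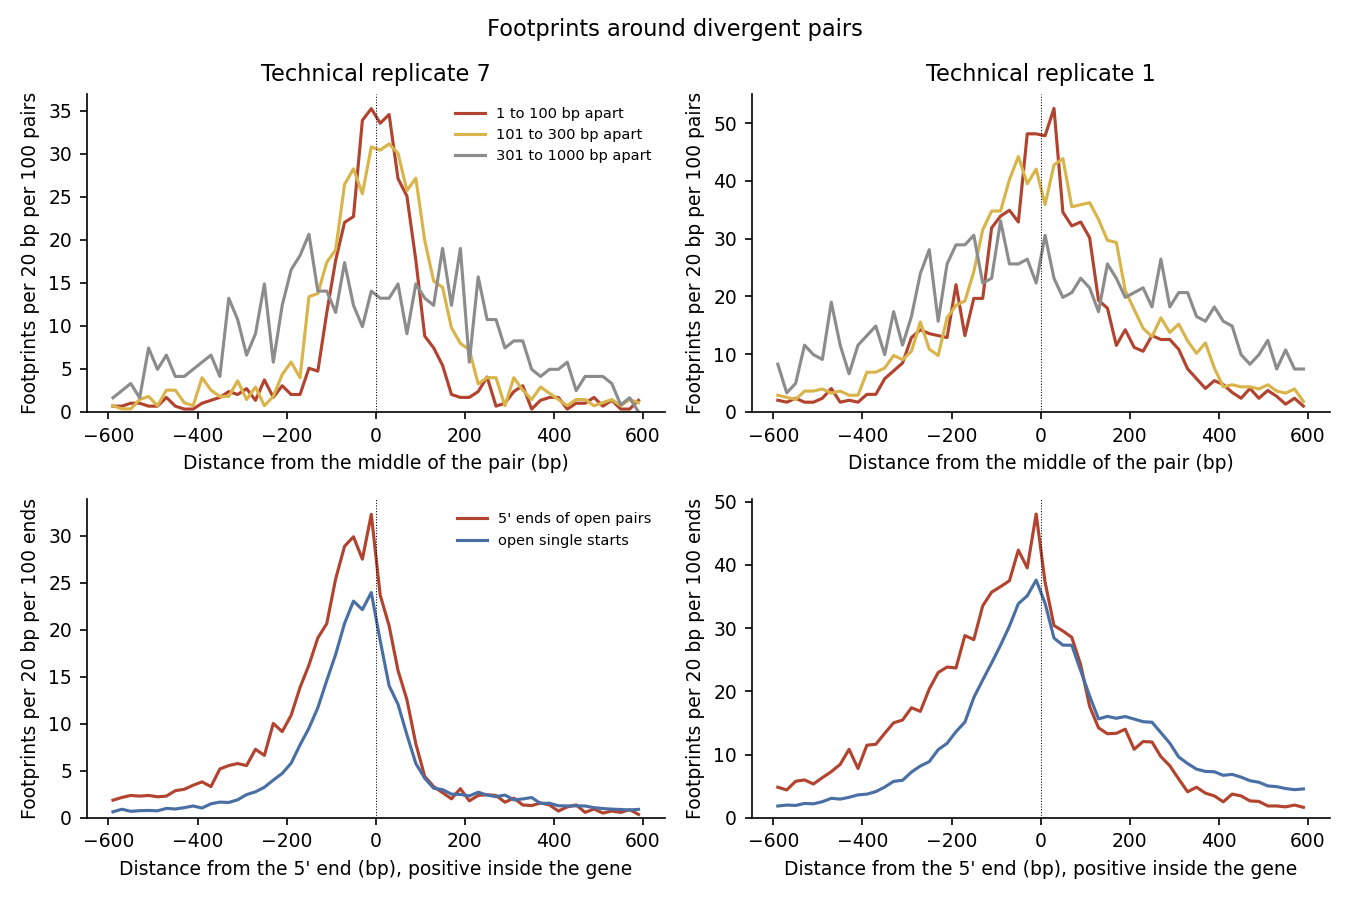
Footprints per 20 bp (y axes) in technical replicates 7 (left) and 1 (right): upper panels around the middle of open pairs in 3 classes of distance, lower panels around each 5′ end, for open pairs (red) and open single starts (blue). The pairs' curve lies above that of single starts upstream of the 5′ end, where 2.64 footprints per pair 5′ end stand against 1.74 per single start within 300 bp in technical replicate 7.

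Motifs were searched as exact letters on both strands in each whole window. An ETS site was found in 297 of 734 pairs (40.5%, 36.9 to 44.1%), against 23.0% of single starts weighted to the pairs' CpG content, and 15.2% of all the promoters searched (both kinds of pair and single starts). An NF-Y box was found in 220 pairs (29.97%, 26.7 to 33.4%), against 18.1% of single starts and 18.8% of all promoters. A YY1 site (AAGATGGC) was found in 105 pairs (14.3%, 11.9 to 17.0%), against 7.48% of single starts and 5.62% of all. ZNF143 (ACTACAANT), a factor of promoter loops, matched 5.86% of pairs (4.27 to 7.81%), against 3.49% of single starts and 3.16% of all. The TATA box (TATAAA) was less frequent, in 68 pairs (9.26%, 7.27 to 11.6%), against 15.6% of single starts and 26.7% of all. At least 1 of ETS, NF-Y, YY1, NRF1 and ZNF143 was present in 525 pairs (71.5%, 68.1 to 74.8%), against 47.4% of single starts of like CpG content, and 2 or more different ones in 24.4%, against 10.46%. This set holds the ETS, NF-Y, YY1 and ZNF143 motifs just given as more frequent in pairs, so its excess follows from theirs and is no separate result. It was read over whole windows only, which in pairs hold 2 5′ ends.

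For each of the remaining motifs the value of single starts lay inside the pairs' interval. NRF1 was found in 9.26% of pairs (7.27 to 11.6%), against 7.27% of single starts and 4.38% of all promoters, and SP and KLF sites in 32.4% (29.0 to 35.9%), against 34.0% and 19.6%. CREB and ATF sites were found in 5.45% of pairs, against 4.27% of single starts and 2.77% of all, and E-boxes (CACGTG) in 19.9%, against 17.8% and 13.2%. Among sites of factors that mark the tissue, GATA factor sites (AGATAA), bound by the erythroid factor Gata1, were found in 12.5%, against 14.0% of single starts and 23.9% of all, and FOXA sites (TGTTTAC), bound by hepatoblast factors, in 4.77%, against 5.45% and 7.20%. HNF4 (CAAAGTCCA), also of hepatoblasts, matched 8 pairs (1.09%, 0.472 to 2.14%), against 0.530% of single starts and 1.32% of all. The CTCF motif matched 4 pairs (0.545%, 0.149 to 1.39%), against 1.25% and 0.746%.

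A pair's window holds 2 5′ ends and a single start's window holds 1, so the parts of the window were also read separately. Between the 5′ ends an NF-Y box was found in 158 of 734 pairs (21.5%, 18.6 to 24.7%), against 9.03% upstream of single starts over the same lengths and CpG content. An ETS site was found there in 113 pairs (15.4%, 12.9 to 18.2%), against 8.18%. A YY1 site was found there in 13 pairs (1.77%, 0.946 to 3.01%), against 0.951%, which lay just inside the lower bound of the pairs' interval. In the 300 bp inside each gene, counted per 5′ end, an ETS site was found at 220 of 1448 pair genes (15.2%, 13.4 to 17.1%), against 11.9% of single starts. There a YY1 site was found at 94 pair genes (6.49%, 5.28 to 7.89%), against 5.18%, and an NF-Y box at 76 (5.25%, 4.16 to 6.53%), against 3.28%. Per 5′ end, the YY1 difference was thus 1.31 points, against 6.82 points per window. GATA sites, inside each gene, were found at 5.04% of pair genes (3.97 to 6.30%), against 2.58% of single starts, unlike in the whole window. The TATA box difference also depended on the part read: 3.11% of pair genes and 2.44% of single starts held it inside the gene, and 3.95% of pairs and 5.08% of single starts between the ends.

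**Figure D4:**
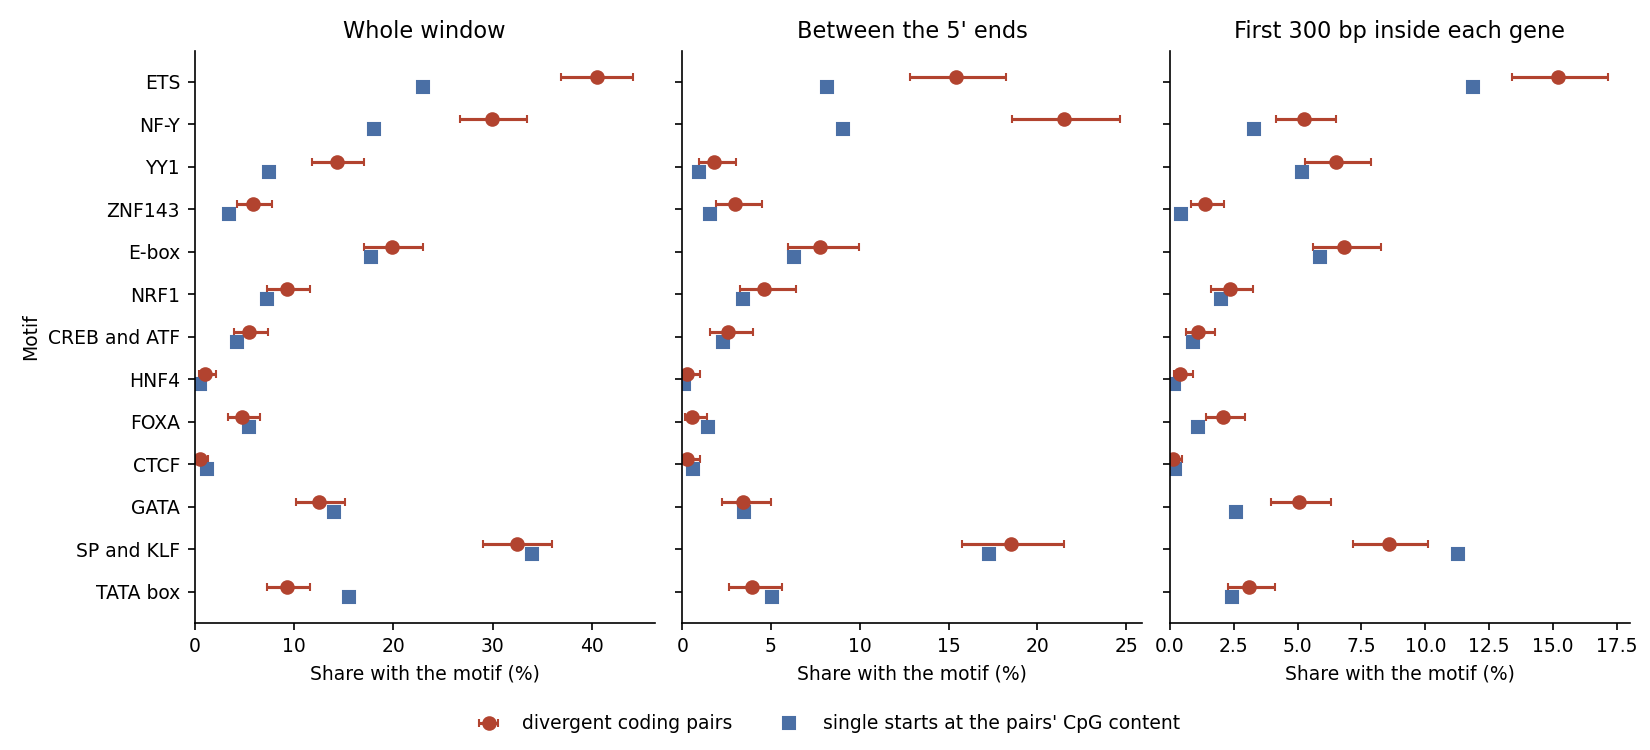
Share (x axes, percent) of divergent coding pairs (red, with exact 95% intervals) and of single starts weighted to the pairs' CpG content (blue) with each of 13 motifs, in the whole window, between the 5′ ends (single starts given the pairs' lengths) and in the 300 bp inside each gene. NF-Y stands furthest apart between the ends, with 21.5% of pairs and 9.03% of single starts, and ETS in the whole window, with 40.5% and 23.0%.

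The place of the sites relative to the genes differed between motifs. Of 277 NF-Y boxes in open pairs, 189 lay between the 5′ ends (68.2%, 62.4 to 73.7%), as did 53.4% of SP and KLF sites, 56.5% of ZNF143 sites and 47.3% of NRF1 sites, where the interval made up 23.9% of the bases. YY1 sites lay elsewhere: 13 of 114 were between the ends (11.4%, 6.21 to 18.7%), and their median position was 40.5 bp inside the nearer gene, against 29.5 bp at open single starts. Taking the nearer gene limits how far outside a gene a site can lie in pairs, so the medians of the classes are not fully alike. The letters AAGATGGC read along the strand of the nearer gene at 91 of 114 YY1 sites in open pairs (79.8%, 71.3 to 86.8%) and at 71.1% of 585 sites at open single starts (67.3 to 74.8%). ETS sites were closer to an even split, with 49.2% along the strand of the nearer gene in open pairs (44.2 to 54.3%) and 53.1% at single starts (51.0 to 55.1%). For NF-Y boxes the shares were 40.4% in open pairs (34.6 to 46.5%) and 51.9% at single starts (49.5 to 54.2%). ZNF143 sites read along it in 65.2% (49.8 to 78.6%) and 63.7% (58.3 to 68.9%). ETS sites were more spread out, with a median position 15.5 bp inside the gene in pairs and quartiles of -10 and 119.75 bp. Of these sites, 30.7% lay between the 5′ ends (26.2 to 35.4%).

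YY1 sites of named pairs are shown with 8 bases on each side, read along the motif, with the motif in capitals, as examples of sites just inside a gene. Of 12 YY1 sites in named pairs, 5 lay in the first 100 bp inside a gene, 5 farther inside and 2 outside, and the 4 shown are from the first kind. The site of Rer1/Morn1 lies 29.5 bp inside Rer1, that of Mrps12/Sars2 24.5 bp inside Sars2, that of Foxa3/Sympk 58.5 bp inside Sympk, and that of Pdhx/Apip 64.5 bp inside Pdhx. All are on the plus strand of GRCm38 (mm10) except that of Pdhx/Apip, which is on the minus strand. The site in Rer1, a minus-strand gene, reads against the strand of its gene, and the others read along it.
Rer1/Morn1, chr4:155086341-155086364: cagccgccAAGATGGCcgcggggc
Mrps12/Sars2, chr7:28742005-28742028: tccactccAAGATGGCtgcgtcca
Foxa3/Sympk, chr7:19024424-19024447: gcgggcggAAGATGGCggcggcgg
Pdhx/Apip, chr2:103073437-103073460: aagccgggAAGATGGCggcctcct

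Motif sites differed in how often a footprint overlapped them. In open pairs, 90 of 110 NRF1 sites (81.8%, 73.3 to 88.5%) and 33 of 41 CREB and ATF sites (80.5%) overlapped a footprint in technical replicate 7, against 67.3% and 64.8% of the sites at open single starts. SP and KLF sites did so in 60.5% in pairs and 50.1% at single starts, ETS sites in 29.1% and 25.5%, YY1 sites in 21.1% and 19.0%, and NF-Y boxes in 16.2% (12.1 to 21.1%) and 11.95%. In technical replicate 1 the shares were 88.2% in pairs and 70.1% at single starts for NRF1, 87.8% and 76.9% for CREB and ATF, 52.3% and 44.97% for ETS, and 28.5% and 22.4% for NF-Y. These shares were not weighted to the same CpG content, and footprints covered more of the pairs' windows as a whole. The mean share of bases covered was 6.38% in open pairs and 4.26% at open single starts in technical replicate 7, and 14.2% and 10.4% in technical replicate 1. Pairs with an NRF1 site had a median density percentile of 97.5 in technical replicate 7 and 95.4 in technical replicate 1, against 96.0 and 90.7 for pairs without it. Pairs with and without an ETS site differed little, with 96.2 and 96.1 in technical replicate 7 and 91.1 and 91.4 in technical replicate 1.

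The strongest pair was Hjurp/Trpm8 on chromosome 1, with 28 bp between a chaperone of the centromeric histone and a cold-sensing ion channel. Its peak density reached 17.0 in technical replicate 7 and 17.6 in technical replicate 1, where the next highest pairs had 8.80 and 6.79. A single peak covered both 5′ ends in both libraries, and an ETS site lay 15 bp inside Hjurp. Rer1/Morn1, where Rer1 retrieves proteins from the Golgi to the endoplasmic reticulum, had densities of 7.98 in technical replicate 7 and 6.17 in technical replicate 1, with a shared peak in both. Pdhx/Apip, which pairs a subunit of the pyruvate dehydrogenase complex with an enzyme of methionine salvage, had 6.88 and 6.08 in the same order of libraries. The other strong pairs, from Larp7/Zgrf1 to Dcaf6/Mpc2, had mean percentiles of 99.58 or more. In Dcaf6/Mpc2 the libraries disagreed on the strongest peak, whose summit lay 575 bp from the middle of the pair in technical replicate 7 and 1 bp from it in technical replicate 1.

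The next pairs were named because they held the most footprints or the most peaks in technical replicate 7, and Apaf1/Ikbip and Nfya/Oard1 were also among the strongest. Apaf1/Ikbip, with the scaffold of the apoptosome, had densities of 6.04 and 6.68 in technical replicates 7 and 1 and 12 footprints in each. Nfya/Oard1, where Nfya encodes the DNA-binding subunit A of NF-Y, had 6.09 and 6.02, and 12 and 16 footprints, and its window itself held an NF-Y box. Rnf5/Agpat1 held the most footprints in technical replicate 7, with 14 there and 14 in technical replicate 1, followed by Setd3/Ccnk with 13 and 12. Gm45785/Ric8a had the most peaks in technical replicate 7, 5 there and 2 in technical replicate 1, over 626 bp between the ends. Smim7/Tmem38a, 967 bp apart, had 4 peaks in each library.

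Of the 7 pairs listed by name that were members, 6 were open. Atm/Npat, with a kinase of the DNA damage response and a coactivator of histone genes, had densities of 6.49 in technical replicate 7 and 4.36 in technical replicate 1. Mcm4/Prkdc, with a subunit of the replicative helicase and the catalytic subunit of DNA-dependent protein kinase, had 5.22 and 4.21. Brca1/Nbr1, with a recombination gene and an autophagy receptor, had 5.34 and 3.67, and its peaks reached only 1 of the ends in each library. The summit there lay 119 bp to the left of the middle in technical replicate 7 and 288 bp to the right in technical replicate 1. Mrps12/Sars2, both genes of mitochondrial translation, had 4.60 in both libraries. Rpl9/Lias, a ribosomal protein gene and lipoic acid synthase, had 5.60 and 3.93, and Gart/Son, with an enzyme of purine synthesis and a splicing cofactor, had 5.87 and 3.64. These Gart/Son values belong to different peaks, with summits 555 bp to the right of the middle in technical replicate 7 and 211 bp to the left in technical replicate 1. Col4a4/Col4a3, collagen genes of the kidney basement membrane, had no peak in the stricter list of either library.

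**Figure D5:**
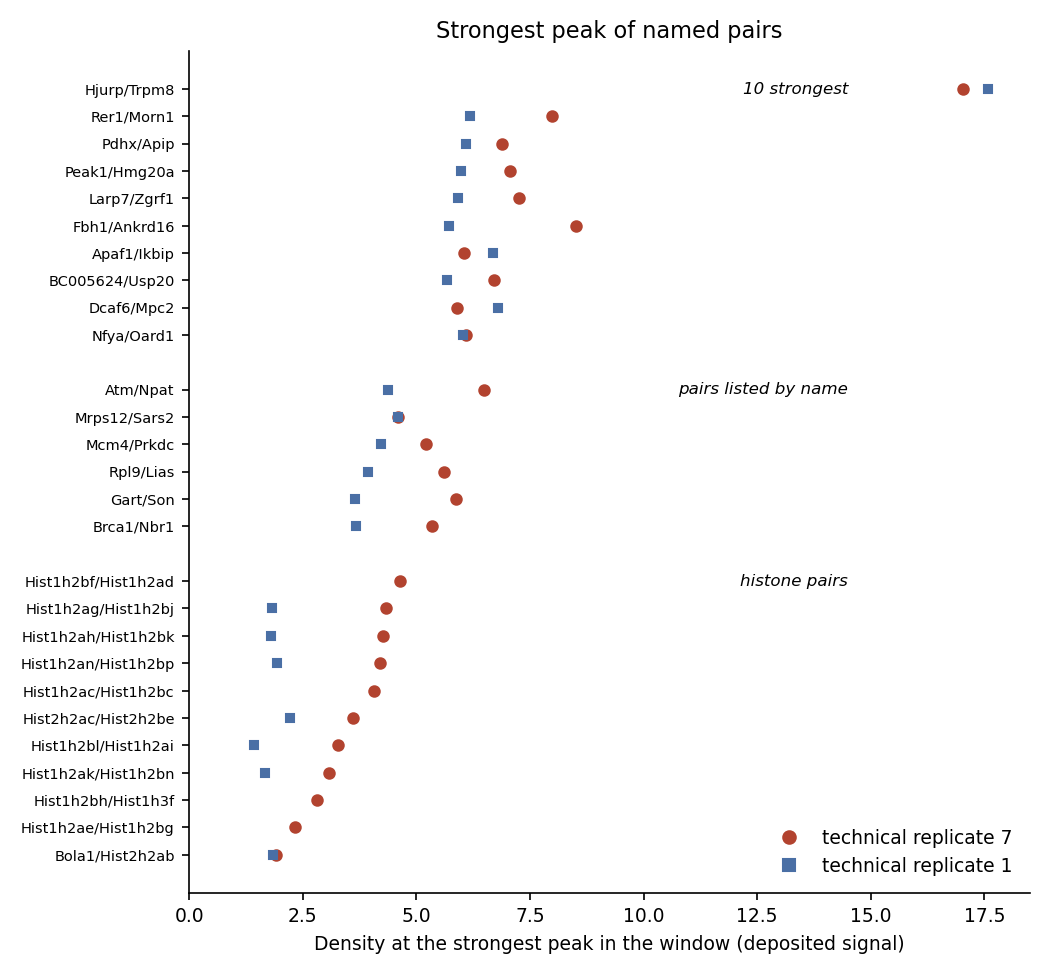
Density of the strongest peak (x axis, deposited signal, linear from 0) in technical replicate 7 (red circles) and 1 (blue squares) for the 10 strongest pairs, the open pairs listed by name and the histone pairs with a peak. Hjurp/Trpm8 stands apart at 17.0 and 17.6, and histone pairs reach at most 4.63 in technical replicate 7 and 2.21 in technical replicate 1.

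The 94.3% of all pairs that were open lay within the exact interval of each of the 6 gene lists except that of histone genes. All 50 pairs with a mitochondrial gene were open, which sets a lower bound of 92.9%, and 53 of 268 such genes lay in divergent pairs (19.8%), against 6.96% of all coding genes. Of those genes at single starts, 126 of 148 were open (85.1%). Here and for the lists below, single starts were not weighted to the pairs' CpG content, and a peak near either gene made a pair open. Klc4/Mrpl2, with a protein of the large mitochondrial ribosomal subunit, had densities of 5.10 and 6.44 in technical replicates 7 and 1, and Slc25a32/Dcaf13, with the mitochondrial folate carrier, 5.40 and 5.04. Of 48 pairs in the RNA and protein synthesis list, 47 were open (97.9%), against 175 of 206 single starts (85.0%). The lists were drawn mostly by the first letters of gene symbols. This list therefore also took in proteasome genes, such as Psmb1 and Psma7, and the kinase gene Rps6kb1. ETS sites were present in 18 of the mitochondrial pairs and 21 of the RNA and protein synthesis pairs, shares near the 40.5% of all pairs.

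Of 24 pairs with a zinc finger gene, 23 were open (95.8%), against 258 of 350 single starts of zinc finger genes (73.7%). Of 20 pairs with a DNA replication or repair gene, 18 were open (an interval of 68.3 to 98.8%), against 42 of 51 single starts (82.4%). Prpf38a/Orc1, with a splicing factor and a subunit of the origin recognition complex, had densities of 5.81 and 4.55 in technical replicates 7 and 1. Pinlyp/Xrcc1 had no peak in either list, but another annotated start of Xrcc1, 861 bp away, was open in both libraries. Of the 2 pairs in the collagen and matrix list, Polk/Col4a3bp was open, and Col4a3bp encodes a ceramide transfer protein and not a collagen.

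Histone pairs stood apart from the rest. Of 67 histone genes, 27 lay in 14 divergent pairs (40.3%, 28.5 to 53.0%), and 12 of the pairs joined an H2A gene with an H2B gene. The distance between their 5′ ends ranged over 156 to 660 bp. In technical replicate 7, 11 of the 14 pairs had a peak, and in technical replicate 1 only 7 did, so that 7 were open (an interval of 23.0 to 77.0%), against 16 of 20 single starts of histone genes (80.0%, 56.3 to 94.3%). The median CpG ratio of the histone pairs was 0.933. All 14 held an NF-Y box, with 24 boxes in all, 10 held a TATA box, and none held an ETS, NRF1 or SP and KLF site. The sequences of Hist1h2ag/Hist1h2bj, with 3 NF-Y boxes between the ends, and Hist1h2bq/Hist1h2ao, with 1, are printed above.

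Among open histone pairs, Hist2h2ac/Hist2h2be had densities of 3.59 in technical replicate 7 and 2.21 in technical replicate 1, and Hist1h2ag/Hist1h2bj 4.32 and 1.83. Hist1h2bf/Hist1h2ad had the highest density of the group in technical replicate 7, 4.63, and no peak in technical replicate 1. Hist1h2bq/Hist1h2ao, Hist1h2ap/Hist1h2br and Hist1h2ba/Hist1h2aa, the last with the testis forms of H2B and H2A, had no peak in any of the 4 lists. Replication-dependent histone genes are near-identical copies of each other, so reads from them may map to several places. How the authors treated such reads is not given in the sources used here, and the part of this in the values was not tested.

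The 42 pairs that were not open fell into a CpG-poor and a CpG-rich group. Of 47 pairs with a ratio under 0.5, 18 were open (38.3%, 24.5 to 53.6%), against 12.04% of 8881 single starts (11.4 to 12.7%). Weighted to the CpG content of the pairs there, the single starts came to 24.3%, just below the lower bound of the pairs. Of 12 pairs with a ratio under 0.2 none was. Of the 13 with a ratio of 0.5 or more that were not open, 7 held a histone gene. Among the others were Nr2e1/Ostm1, with a receptor of neural stem cells, and Lypd4/Dmrtc2, genes of the testis. Nr2e1/Ostm1 had 2 peaks in the longer list of technical replicate 1 and 3 footprints in that library. The CpG-poor group included genes of other tissues and states, such as Nphs1 of the kidney podocyte in Kirrel2/Nphs1, the T cell gene Cd8b1 in Smyd1/Cd8b1, and the interferon-induced Ifit1 in Ifit1bl2/Ifit1. Bhmt2/Dmgdh, with genes of choline breakdown in liver, had no peak at a ratio of 0.543. Its window held 7 footprints in technical replicate 1 and 0 in technical replicate 7.

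For 16 of the 42 pairs, another annotated transcript start of either gene was open in both libraries, outside the window, and 15 of these were among the 29 with a ratio under 0.5. The same share was not taken over closed single starts, and a pair draws on the starts of both its genes. The count therefore does not show whether closed pairs differ in this from other closed starts. They included widely used genes whose outermost annotated 5′ end set the pair: Rps2, a ribosomal protein gene, with an open start 1947 bp away, Ccnt1, cyclin T1, at 3287 bp, and Trim28, a corepressor, at 25038 bp. Where pairs were rebuilt from every annotated transcript start, 918 of 980 pairs were open (93.7%), against 86.1% of single genes at the same CpG content.

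Open pairs of low CpG content were led by Anxa5/1810062G17Rik, with the phospholipid-binding annexin A5, at densities of 4.41 in technical replicate 7 and 3.99 in technical replicate 1 and a ratio of 0.484. Haghl/Ccdc78 had 3.98 and 3.82 at a ratio of 0.217. The weakest was Grik5/Zfp574, with 0.477 and 1.07, at percentiles of 32.9 and 38.6.

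Few pairs held a marker gene of liver cell types. Urod/Hectd3, with an enzyme of heme synthesis, had densities of 4.24 in technical replicate 7 and 2.73 in technical replicate 1, with a separate peak over each 5′ end in both libraries across 904 bp. Foxa3/Sympk, with a transcription factor of hepatoblasts and a gene of RNA 3′ end processing, had 5.36 and 3.47, and the summit lay nearer Sympk in both, 343.5 and 333.5 bp to the right of the middle. Pecam1/Milr1, with the endothelial adhesion gene Pecam1, had 0.545 in technical replicate 7 and no peak in technical replicate 1. Another annotated start of Pecam1, 35234 bp away, was open in both libraries. Klc3/Ckm, with the muscle creatine kinase gene Ckm, had 1.84 and 1.79, and in both libraries the strongest peak reached only the end of Klc3.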

How the data were processed

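DNase-seq peak and footprint lists of 2 technical-replicate libraries of 1 biological sample were read as deposited. Per the file headers, the authors gave each peak a summit and a signal (its maximum density of cuts). Coordinates are on mm10, per the labels. The aligner, callers and density scaling were not given in the sources used here. Densities were whole multiples of 0.00401 in technical replicate 7 and 0.0101 in technical replicate 1, so the libraries were compared by ranks within each list. Each library had a stricter and a longer peak list, and the stricter list was used. The number of reads is not known, so no depth stands behind single values.

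Gene 5′ ends were those of GENCODE vM21, and sequence was RefSeq's GRCm38.p6. A peak counted if it overlapped a window by 1 bp. Shares at single starts were weighted to the pairs' numbers in CpG steps of 0.1. The members, gene lists, motifs and markers were chosen with earlier results of these data known. Named pairs were the 10 highest by mean density percentile, pairs and marker genes listed by name, those with the most peaks or footprints, closed CpG-rich pairs, and the strongest of each gene list; some pairs under this rule are not reported here. Low-CpG, other closed and printed histone pairs were named after their values were seen. Scripts were checked on made-up input with known answers. Python 3.11.15, pandas 2.3.3, numpy 2.4.6, scipy 1.17.1 and matplotlib 3.10.9 were used.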

Additional observations from a re-analysis of the deposited data

How the results depend on the processing

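The direction of the difference between divergent pairs and single starts was kept under every alternative run for the share open, the number of peaks, and the ETS, NF-Y and YY1 motifs. For footprints per window the only alternative was a longer list of technical replicate 7, which kept the direction, and none was run for technical replicate 1. Inside the gene, technical replicate 1 had fewer footprints per pair 5′ end than per single start, 2.75 against 2.94. The excess of open pairs over single starts, 8.34 points, was 6.10 with the longer peak lists, 10.63 where a summit had to lie in the window, 18.07 with the stronger part of each list, 19.97 with weighting by GC content and 47.28 with no weighting. Leaving out a library in turn gave 5.05 to 7.66 points. The other settings, among them windows around every 5′ end and starts of any transcript, gave values inside the interval of the main value. The share of open pairs with 2 or more peaks, 56.8%, was 39.53% with summits in the window and 45.51% with the stronger peaks, and 46.18 to 56.35% with a library left out. Its excess over single starts was 14.8 points with summits in the window. The median density percentile was 96.95 with the longer lists, and 91.22 to 96.10 with a library left out. Leaving out a library also gave a median width of 273 to 384 bp and a summit between the 5′ ends in 60.61 to 69.90% of open pairs. Footprints per open window exceeded single starts by 1.24, and by 1.757 with a longer footprint list.

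The ETS excess of 17.5 points was 21.74 with weighting by GC content, 27.04 with no weighting, 8.312 in 150 bp around the strongest summit, 6.926 between the 5′ ends, 7.216 there with lengths given in turn, and 3.344 inside each gene. The NF-Y excess of 11.9 points was 6.421 around the summit and 1.970 inside each gene. The YY1 excess of 6.82 points was 1.713 around the summit, 0.982 and 0.820 between the ends with a fixed length and with lengths in turn, and 1.313 inside each gene. The TATA box difference of -6.32 points was -18.64 with no weighting, -8.518 with lengths in turn, -0.3459 around the summit and -1.129 between the ends with lengths in turn. It turned round to 1.094 between the ends with a fixed length and 0.6664 inside each gene. These windows hold fewer bases, and the cause was not tested. Reading the inside of genes, and giving single starts the pairs' lengths for motifs and for the number of peaks, were alternatives added after seeing the data. No paired analysis was possible because there is 1 group. With no read numbers and 1 biological sample, no value says how pairs differ between embryos, and a pair without a listed peak may still be accessible below the list's threshold.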

Other observations

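Rad51c/Tex14 was the only pair with a peak in technical replicate 1 alone. Its peak there had a density of 4.86, above the median of 3.55 over open pairs, while technical replicate 7 listed no peak in either of its lists and neither library listed a footprint in the window. Rad51c encodes a recombination protein and Tex14 a protein of germ cell bridges. Stap2/Mpnd showed the opposite, with a density of 2.44 in technical replicate 7 and no peak in technical replicate 1.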
